A study of Mus musculus with 12 samples.

Results

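Among 19049 ac4C peaks in the authors' deposited peak table, 371 were assigned to pseudogenes, and these 371 peaks lay in 322 of the 8797 genes with a peak. They were selected as every peak whose gene biotype contains the word pseudogene, and all of them carried that biotype in the peak table itself. The cells were ID8, a mouse ovarian cancer line that arose from ovarian surface epithelium, and the groups were cisplatin-treated ID8 cells and control ID8 cells. Each group gave 3 libraries of RNA precipitated by an anti-ac4C antibody (IP) and 3 libraries of input RNA, 12 libraries in all. Neither the dose nor the duration of cisplatin, nor whether the replicates came from separate cultures, is stated in the labels, so a p-value reflects only how far these particular libraries spread. Input RNA is given per library, whereas peaks were deposited with a single comparison and without values for each library.

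Pseudogenes are copies of genes that have lost, or never had, the means to make the full protein. Processed pseudogenes arise when an mRNA is reverse transcribed and inserted elsewhere in the genome, so they lack introns, and mRNAs that are abundant in the germ line, those of ribosomal proteins above all, have left many of them. Unprocessed pseudogenes are duplicates of genomic DNA. N4-acetylcytidine (ac4C) is a cytidine acetylated by NAT10, known from ribosomal RNA and tRNA and described in mRNA, and it is mapped here by antibody pull-down of RNA fragments. A fragment of a recent processed pseudogene and a fragment of its parent mRNA can be nearly the same sequence, and none of the sources used here gives the counting rule for fragments that fit both, so the split of reads between a pseudogene and its parent is uncertain throughout.

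The likeness of a pseudogene to its parent can be seen at the start of Tma7-ps, a processed pseudogene with a peak at chr1:171711171-171711282 (mm10, plus strand). Its parent Tma7 encodes a small protein associated with the translation machinery. The windows below are from RefSeq on GRCm38.p6, which holds a promoter window for 8 of the 322 pseudogenes, and a window runs from 250 bases before to 50 bases after the annotated start. Each line shows 30 bases, with the longest run shared by both windows in capitals.
Tma7-ps (chr1:171711070-171711099, plus strand): tgAGGGGCTGGAGGCGCCATGTCGGGCCGg
Tma7 (chr9:109082332-109082361, minus strand): tgaAGGGGCTGGAGGCGCCATGTCGGGCCG
The shared run of 27 bases lay downstream of the annotated start in both genes and, read on both strands, occurred in 3 of 32851 promoter windows, those of Tma7-ps, Tma7 and Ccdc51. It lies outside the peak of Tma7-ps, so likeness to the parent within the peak is not shown. Tma7-ps is 1 example picked from the 8. RefSeq lists both Tma7-ps and Rpl37rt, a retrocopy of Rpl37, as protein-coding, against the pseudogene biotype in the deposited tables, as it does for 8 of the 275 pseudogenes whose symbol matched it.

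Of the 371 peaks, 299 were in processed pseudogenes, 28 in transcribed processed, 24 in unprocessed and 12 in transcribed unprocessed pseudogenes. A further 4 peaks were in the polymorphic pseudogene Pcdhgb8, a member of the protocadherin gamma cluster of cell adhesion genes, and 4 carried the plain biotype pseudogene. Most pseudogenes, 288 of 322, had 1 peak, 26 had 2 and 8 had 3 or more. The highest number was 7, in the unprocessed pseudogene 5830417I10Rik on chromosome 3. Peaks were single blocks in all but 17 cases (4.58%), against 44.8% of the peaks of other genes that spanned more than 1 exonic block. Median exonic width was 176 bp, against 181 bp for peaks of other genes. Of 313 peaks that could be placed on a RefSeq gene span cut into 3 equal parts, 101 were centred in the 5′ part, 133 in the middle part and 79 in the 3′ part.

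A parent gene was known for 76 pseudogenes, 66 from a symbol ending in "-ps" and 10 from a RefSeq synonym or an "-rs" symbol, and 246 pseudogenes, mostly with predicted-gene symbols, had no known parent. The 76 pseudogenes had 60 distinct parents, of which 51 had ac4C peaks of their own, 99 peaks in all. Ribosomal protein genes were the main source, with 45 of the 76 pseudogenes, and their RNA encodes subunits that cells make in large amounts. Single examples came from many other housekeeping genes, among them Pgam1, which encodes the glycolytic enzyme phosphoglycerate mutase, and Tpt1, which encodes the translationally controlled tumour protein.

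The expression table listed the markers that fit ID8 cells: 10 of 11 epithelial and ovarian surface epithelium markers were listed and 8 had a mean of at least 1 FPKM (fragments per kilobase of gene, scaled to the library's depth). No endothelial or granulosa cell marker of 3 each was listed. Of 4 fibroblast markers 3 were listed, summing to 17.1 to 18.7 FPKM in cisplatin inputs and 23.7 to 24.6 FPKM in control inputs, and of 5 leukocyte markers 2 were, summing to 7.54 to 9.92 FPKM in cisplatin inputs and 2.22 to 2.57 FPKM in control inputs. Fragments in listed genes numbered 22201704 to 30159427 in cisplatin inputs and 20682920 to 21900044 in control inputs. Cisplatin replicate 2, the deepest library, stood apart for pseudogenes. It had the highest FPKM of the 3 cisplatin inputs for 124 of 146 tested pseudogenes with a peak (84.9%), against 33.1% of the 11449 genes tested. It was also the highest for 156 of 327 tested pseudogenes without a peak (47.7%), and for 12 of 59 parent genes (20.3%). Many input RNA values are given with and without it, and its part in them was not tested. Peak values were deposited as a single comparison without values for each library, so none can be given without it.

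**Figure D1:**
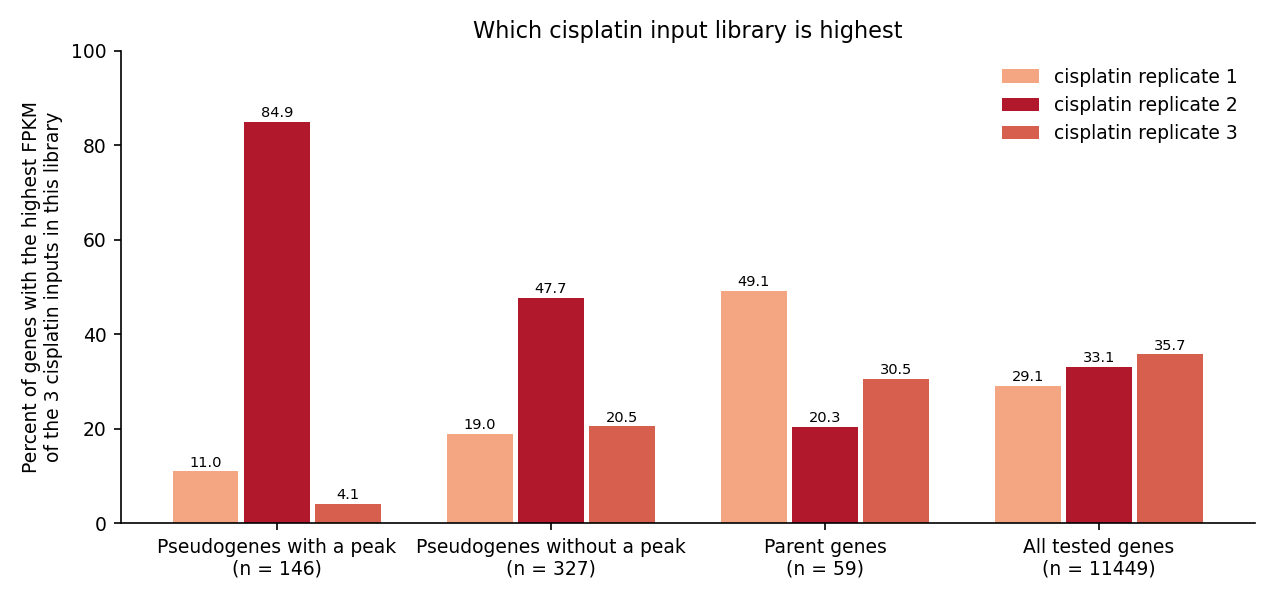
Percent of genes (vertical axis) whose FPKM was highest in cisplatin replicate 1, 2 or 3 among the 3 cisplatin input libraries, for 4 sets of tested genes (horizontal axis). Replicate 2 was highest for 84.9% of the pseudogenes with a peak, 47.7% of those without, 20.3% of parent genes and 33.1% of all tested genes.

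Peaks in pseudogenes were less enriched than peaks elsewhere and had weaker statistics. Their median fold enrichment of IP over input was 3.97, with quartiles of 2.57 and 8.23, against 4.43 for the 99 peaks of the parent genes and 7.05 for the 18678 peaks of other genes, parents included. These folds are the authors' own values per peak and are compared here as a description. The median log10 p of enrichment was -2.86, against -34.7 for parent peaks and -6.97 for other peaks. By biotype, the median fold was 3.72 for processed pseudogenes, 6.76 for transcribed processed, 7.05 for unprocessed and 11.2 for transcribed unprocessed pseudogenes. Peaks of the 45 ribosomal protein pseudogenes had a median of 3.53, and the 57 peaks of their parents one of 3.51. A limit of these values is that 110 pseudogene peaks (29.6%) had a pair of fold and p that at least 20 peaks in the list shared, as 24.2% of other peaks did, and the largest such set held 511 peaks, so ranks among them carry little.

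The pseudogene peak of highest fold enrichment was in AC117769.3, a processed pseudogene at chr19:36404566-36405071, with 42.3-fold. It was followed by peaks in 5830417I10Rik, Gm10033 and Gm44011 at 24.7-fold each, a value that 60 peaks of the list share with the same p, and by 2 more peaks of 5830417I10Rik at 22.3-fold. None of these peaks passed the authors' threshold for a difference between treatments. Input RNA was low in some of the genes with the most enriched peaks, but not in all. Gm15576, with a peak at 18.8-fold, had several FPKM in control inputs, as given below. AC117769.3 had 0.148, 0.0787 and 0.164 FPKM in cisplatin inputs, against 0.213, 0.0788 and 0.0278 FPKM in control inputs, and its groups overlapped. AC154636.3, whose peak at 18.8-fold was also among the highest, had 0, 0.027 and 0 FPKM in cisplatin inputs, against 0.729, 0.72 and 0.913 FPKM in control inputs. These AC154636.3 values came from 1 fragment in the cisplatin inputs and 64 in the control inputs, and the groups did not overlap.

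The authors' table gives each peak a log2 difference of enrichment between treatments with an adjusted p. Its direction is not stated in the file headers, so peaks are described by the sign as deposited. Of 371 pseudogene peaks, 63 in the authors' deposited table had an adjusted p at or under 0.05 (17.0%), against a background of 46.2% over all 19049 peaks. By sign, 21 were positive (5.66%) and 42 negative (11.3%), against backgrounds of 36.5% positive and 9.62% negative over all peaks. Pooled over all strengths of enrichment, the negative share was thus near the background and the positive share below it. Of the called peaks, 33.3% were positive in pseudogenes and 79.2% in the list as a whole. More of the pseudogene peaks than of other peaks were weakly enriched, and such peaks were seldom called. The pooled shares therefore mix unlike peaks, and counts by strength are given below. Called peaks in the authors' deposited table made up 69 of the 99 parent peaks (69.7%), 50 positive and 19 negative. The median log2 difference in the authors' deposited table was -0.29 for pseudogene peaks, 1.00 for parent peaks and 1.58 for peaks of other genes. No test between these sets was run, since a peak is not a replicate of a condition.

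**Figure D2:**
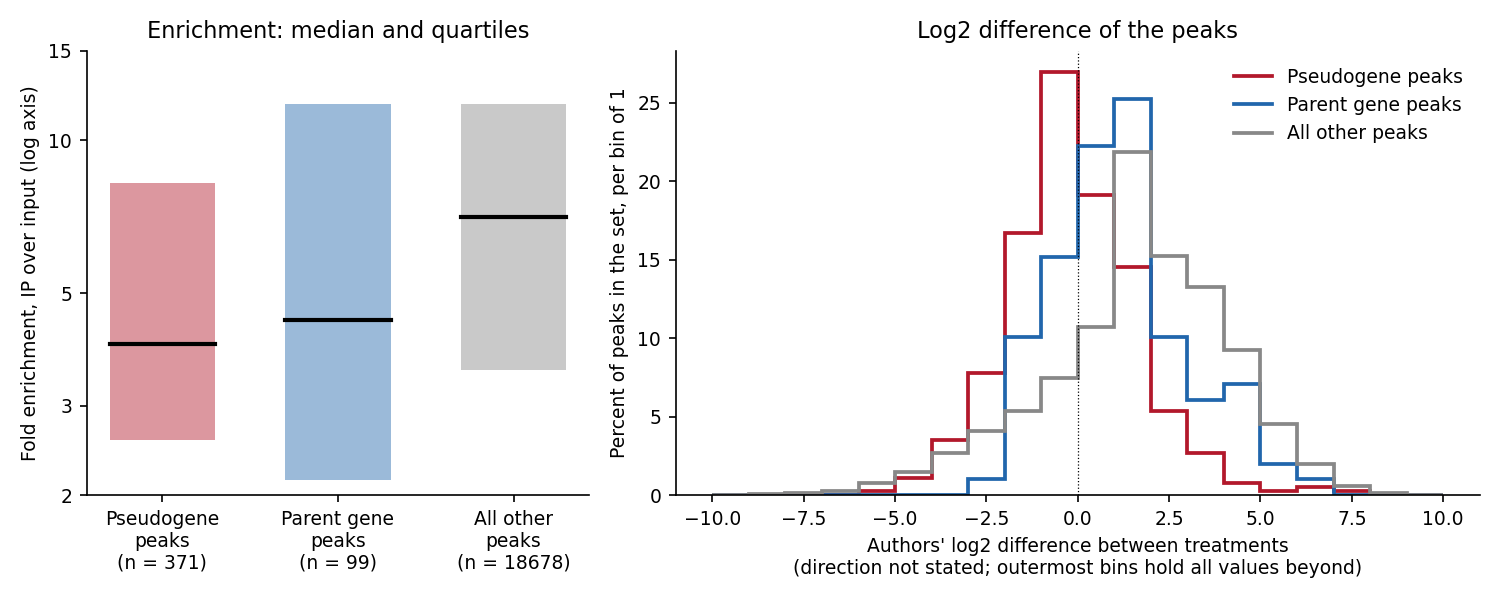
Left, fold enrichment of IP over input on a log axis, as the median (line) and the quartiles (box), for 371 pseudogene peaks, 99 parent gene peaks and 18678 peaks of all other genes, which include the parents. Right, percent of peaks per bin of 1 of the authors' log2 difference, whose direction is not stated. Medians were 3.97, 4.43 and 7.05 for the folds, and -0.29, 1.00 and 1.58 for the log2 differences.

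The share of called peaks moved with the strength of enrichment, while the more frequent sign within each set stayed the same. In the authors' deposited table, among peaks with a log10 p of enrichment of -10 or lower, 36 of 50 pseudogene peaks were called, 14 positive and 22 negative. In the same class 61 of 72 parent peaks were called, 43 positive and 18 negative, and 5648 of 7228 other peaks, 4433 positive and 1215 negative. Between -10 and -3, the authors' deposited table called 22 of 120 pseudogene peaks, 6 positive and 16 negative, and 2859 of 7571 other peaks, 2338 positive and 521 negative. Above -3, it called only 5 of 201 pseudogene peaks, 1 positive and 4 negative, and 222 of 3879 other peaks, 167 positive and 55 negative. In each class the called pseudogene peaks were more often negative than positive, and the called peaks of other genes were more often positive. Called negative peaks were also a larger share of pseudogene peaks than of other peaks in each class. Of the 22 negative peaks at -10 or lower, 5 belong to 1 block of neighbouring genes on chromosome 1, described below. Overlapping peaks of 1 gene also count separately, those of Rpl37rt among the 22 negative ones and those of Gm10110 among the 14 positive ones.

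**Figure D3:**
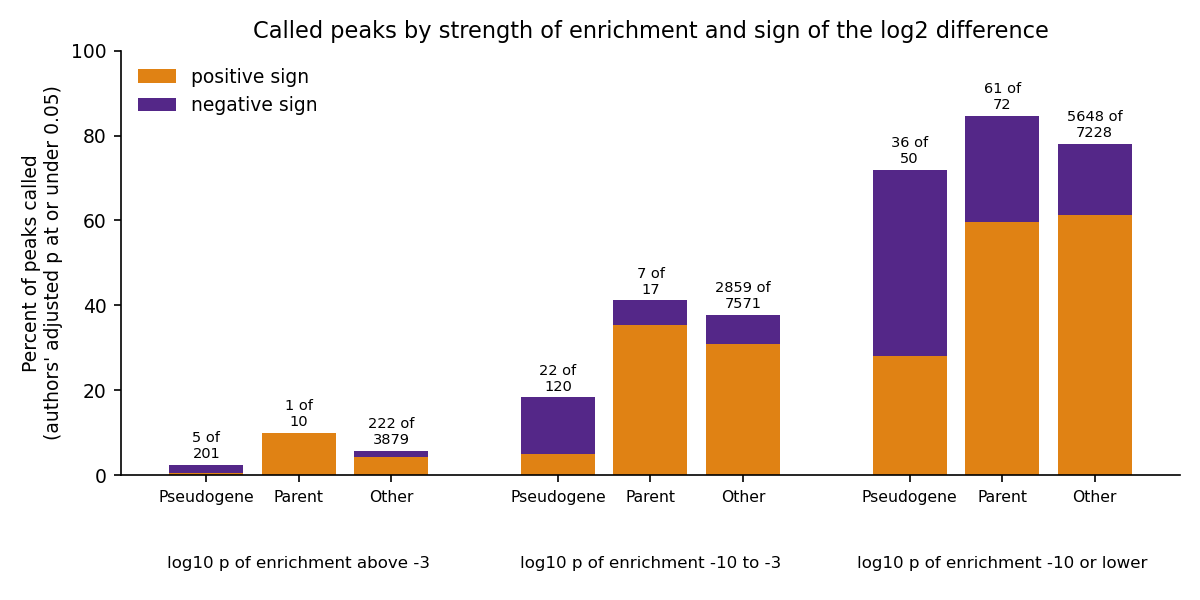
Percent of peaks called at the authors' adjusted p of 0.05 (vertical axis) in 3 classes of the log10 p of enrichment, for pseudogene, parent gene and all other peaks, split by the sign of the authors' log2 difference. In the class of -10 or lower the called pseudogene peaks were 14 positive and 22 negative, against 4433 positive and 1215 negative among other peaks.

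The split differed among kinds of pseudogene. Of 299 peaks of processed pseudogenes, 43 were called in the authors' deposited table, 12 positive and 31 negative, whereas 5 of the 7 called peaks of transcribed processed pseudogenes were positive. Of those 5 positive peaks, 2 are peaks of Gm10110 that overlap each other, and that of Gm15725 lies wholly within a peak assigned to Lrrc58. Among unprocessed pseudogenes the authors' deposited table called 8 of 24 peaks, 1 positive and 7 negative, but 6 of the negative ones belong to 1 block of neighbouring genes on chromosome 1, and the other 2 called peaks are both in 5830417I10Rik. Of the 7 called peaks in ribosomal protein pseudogenes 2 were positive and 5 negative in the authors' deposited table, where 46 of 57 peaks of ribosomal protein parents were called, 34 positive and 12 negative. Leaving out the 25 peaks that overlapped a peak assigned to another gene left 55 called peaks, 18 positive and 37 negative.

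The most negative called peak was in Gm5831 at chr9:42965255-42965432, with a log2 difference of -5.25 in the authors' deposited table and a log10 adjusted p of -2.73. This peak lay wholly within a peak assigned to Arhgef12, so its reads may be counted for both. Other strongly negative peaks in the authors' deposited table were those of Gm7399 (-3.81), Gm6652 (-3.28), Gm9234 (-3.20) and Rpl17-ps10 (-2.83). The most positive called peaks were in Pcdhgb8 on chromosome 18, with a log2 difference of 7.02 in the authors' deposited table, and in Gm13230, a transcribed unprocessed pseudogene at chr4:145450027-145450264, with 6.71 and a fold enrichment of 12.9. A second peak of Pcdhgb8 followed with 6.34 in the authors' deposited table. Both Pcdhgb8 peaks overlapped others, assigned to 6 and 10 other protocadherin gamma genes, which share their last exons. Pcdhgb8 also had peaks of -4.14 and -1.16 in the authors' deposited table, so its 4 called peaks split evenly by sign. A peak of Kansl2-ps, a copy of the gene for a subunit of a histone acetyltransferase complex, had 3.96 in the authors' deposited table.

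Genes with several peaks did not always carry 1 sign. 5830417I10Rik had 2 called peaks among its 7, and in the authors' deposited table the one at the 5′ end had a log2 difference of 1.6 and the other, which overlapped a peak of 1500004A13Rik by 95%, one of -2.04. Gm10110, a transcribed processed pseudogene, had 4 peaks, and both called ones were positive in the authors' deposited table, at 2.03 and 1.98, but they overlap each other on 1 stretch of chromosome 14. Gm4366 had 2 called peaks among 3, at -1.38 and -1.0 in the authors' deposited table. Gm15459 had 2 called peaks among 4, at -1.13 and -1.06 in the authors' deposited table, and all 4 overlapped peaks assigned to Gm26825. Gm10033 and Gm3608 had 3 peaks each, none called.

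In 12 cases a called pseudogene peak could be set beside peaks of its parent, from 11 pseudogenes. Rpl3-ps1, at 0.98 in the authors' deposited table, stood beside 2 called peaks of Rpl3, which encodes a core protein of the large subunit, at 1.35 and 2.06. The 3.96 of Kansl2-ps stood beside a called peak of Kansl2 at 5.03 in the authors' deposited table. Signs were opposite for Tpt1-ps3, at -0.59 against 5.14 for the single peak of Tpt1 in the authors' deposited table. They were opposite too for Gm13493, which RefSeq lists under the synonym Ppia-ps, at 1.33 against a called -1.10 of Ppia, the gene of cyclophilin A, in the authors' deposited table. Rpl17, which encodes a protein of the large subunit, had a called peak of each sign, 1.25 and -0.58 in the authors' deposited table, beside -2.83 for Rpl17-ps10 and -1.67 for Rpl17-ps5. Rpl37, the gene of another large subunit protein, likewise had a called peak of each sign, 2.07 and -1.67, and both peaks of Rpl37rt, which overlap each other, had -1.28 and -1.27 in the authors' deposited table.

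One block of unprocessed pseudogenes was uniform, and it was singled out after its values were seen. It holds 6 neighbouring genes on chromosome 1, Gm28439, Gm10222, Gm28437, Gm10925, Gm28661 and Gm29216, whose peaks lie between 24611914 and 24616168 on the minus strand. RefSeq gives Gm10925 the synonym mt-Atp6, the mitochondrial gene for a subunit of ATP synthase. All 6 peaks were called and negative in the authors' deposited table, with log2 differences between -1.27 and -0.38 and folds between 2.49 and 7.29. On the mitochondrial genome itself 17 of 23 peaks were called in the authors' deposited table, 6 positive and 11 negative, and the peak of mt-Atp6 had -0.66 beside -0.38 for Gm10925.
Input levels of these genes were compared with those of mitochondrial genes. Gm10925 had 25.7, 48.5 and 32.4 FPKM in cisplatin inputs, against 43.8, 36.2 and 35.8 FPKM in control inputs, and mt-Atp6 had 40.2, 64.1 and 40.2 FPKM in cisplatin inputs, against 50.1, 49.1 and 69.9 FPKM in control inputs. All 6 genes of the block and mt-Atp6 were highest of the cisplatin inputs in replicate 2. The mitochondrial ribosomal RNA mt-Rnr2 was lowest there, with 11690, 9776 and 12860 FPKM in cisplatin inputs, against 15910, 15560 and 16000 FPKM in control inputs. The log2 change of mt-Rnr2 was -0.48 (limma adjusted p = 0.00415), or -0.37 without cisplatin replicate 2. The groups of Gm10925 overlapped, with a log2 change of -0.16 (limma adjusted p = 0.503), but without cisplatin replicate 2 they separated, at -0.40 (limma adjusted p = 0.0174). mt-Atp6 had -0.24 (limma adjusted p = 0.312), and without that library its groups separated too, at -0.46 (limma adjusted p = 0.0225). Among the other genes of the block Gm28439 fell with all libraries in the fit, by 0.68 on the log2 scale (limma adjusted p = 0.00587), and Gm10222 and Gm29216 passed only without cisplatin replicate 2, at -1.06 and -0.33.

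Turning to input RNA, 262 of the 322 pseudogenes were listed in the expression table, 60 were not, and 146 passed the filter of at least 1 FPKM in 3 of 6 input libraries. Because a pseudogene can pass through the group in which it is high, counts over these 146 describe the tested genes and not all 322. In the limma fit over 11449 genes, 74 of 146 were called at an adjusted p of 0.05, against a background of 81.3%. Of these, 54 were higher and 20 lower after cisplatin, against backgrounds of 40.1% higher and 41.1% lower. The remaining 72 were not called. Groups did not overlap for 80 of the 146, against 84.2% of all tested genes. The median log2 change, on the log2(FPKM + 1) scale, was 0.44, against -0.0028 over all tested genes. Without cisplatin replicate 2 the median of the pseudogenes was 0.16, with 49 higher and 34 lower of 134 tested, against backgrounds of 36.3% higher and 43.7% lower and a median of -0.063. In bulk RNA, fewer cells of a kind and less RNA per cell cannot be told apart.

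The parents had a smaller median change than the pseudogenes with all libraries, but a larger one without cisplatin replicate 2, 0.21 against 0.16. Of 50 tested parents known by symbol, 30 were higher (60%), 7 lower (14%) and 13 not called in the same limma fit, against backgrounds of 40.1% higher and 41.1% lower, with a median log2 change of 0.19, or 0.21 without cisplatin replicate 2. That direction depends on scaling, as quantile normalization gave the parents a median of 0.025 with 21 higher and 17 lower. The median over all tested genes was then -0.012, and the share of all genes called under that scaling is not given. Summed FPKM of the 146 pseudogenes was 1577, 2578 and 1458 in cisplatin inputs, against 1370, 1241 and 1294 in control inputs. As a share of the fragments in listed genes, pseudogenes with a peak took 0.128%, 0.210% and 0.119% in cisplatin inputs, against 0.121%, 0.111% and 0.116% in control inputs. The 95% Wilson interval in cisplatin replicate 2 was 0.208% to 0.211%, which covers counting error only, as do all such intervals here. Replicate 2 thus stood above the other libraries of both groups, while cisplatin replicates 1 and 3 lay close to the control range. Ribosomal protein pseudogenes followed the same pattern, with sums of 290.5, 560.3 and 245.0 FPKM in cisplatin inputs, against 237.1, 208.3 and 216.4 FPKM in control inputs. Replicate 2 was the highest cisplatin input for 23 of 26 of them, but for 2 of the 32 parents that encode ribosomal proteins. Of these 26 pseudogenes 8 were higher (30.8%) and 2 lower (7.69%), against backgrounds of 40.1% and 41.1%. Without cisplatin replicate 2, 7 of 22 tested were higher (31.8%) and 3 lower (13.6%), against backgrounds of 36.3% and 43.7%.

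The pseudogenes with a peak of highest input level included several in which all 3 cisplatin inputs exceeded the controls. Gm10052 had 96.2, 156 and 95.3 FPKM in cisplatin inputs, against 55.7, 46.2 and 44.99 FPKM in control inputs. Its groups did not overlap, and its log2 change was 1.19 ± 0.19 (SE, n = 3 each; limma adjusted p = 0.000729). Without cisplatin replicate 2 the change was 0.96 with a limma adjusted p of 5.99e-05. Its peak at chr9:123689293-123690192 was the widest of the pseudogene peaks, 900 bp, and was called with a log2 difference of -0.48 in the authors' deposited table. Gm15427 had 109.0, 164.5 and 91.8 FPKM in cisplatin inputs, against 86.8, 80.5 and 84.0 FPKM in control inputs, also without overlap. Its log2 change was 0.49 ± 0.19 (SE, n = 3 each; limma adjusted p = 0.0446), or 0.25 without cisplatin replicate 2. Rpl37rt had 79.1, 128.3 and 74.8 FPKM in cisplatin inputs, against 66.7, 52.9 and 53.5 FPKM in control inputs, a log2 change of 0.66 ± 0.20 (SE, n = 3 each; limma adjusted p = 0.0181), or 0.42 without cisplatin replicate 2. Its parent Rpl37 had 547.9, 465.7 and 509.0 FPKM in cisplatin inputs, against 439.1, 443.8 and 439.4 FPKM in control inputs, and was lowest of the cisplatin inputs where Rpl37rt was highest.

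Other abundant pseudogenes overlapped between groups. Gm9800, the highest of all, had 112.3, 173.7 and 100.7 FPKM in cisplatin inputs, against 102.5, 78.8 and 90.8 FPKM in control inputs, and its log2 change of 0.47 did not pass (limma adjusted p = 0.061). Its peak at chr14:8800028-8800307 was called, with a log2 difference of -1.27 in the authors' deposited table and a log10 adjusted p of -41.5. Gm13493 had 80.1, 89.2 and 90.4 FPKM in cisplatin inputs, against 91.6, 86.8 and 90.3 FPKM in control inputs, and was the 1 gene of the 10 in which replicate 2 was not the highest cisplatin input. Tpt1-ps3 had 54.6, 108.7 and 47.3 FPKM in cisplatin inputs, against 66.5, 61.7 and 62.0 FPKM in control inputs. Cisplatin replicate 2 was above, and the other cisplatin inputs below, all its controls, and the log2 change of Tpt1-ps3 was 0.049 with it and -0.31 without it (limma adjusted p = 0.00407 without it). Gm15459 behaved alike, at -0.0018 with it and -0.29 without it (limma adjusted p = 0.000759 without it). Rps23-ps2 and Gm4617 did not pass either, with log2 changes of 0.58 (limma adjusted p = 0.090) and 0.19 (limma adjusted p = 0.240), or 0.23 and 0.033 without cisplatin replicate 2.

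**Figure D4:**
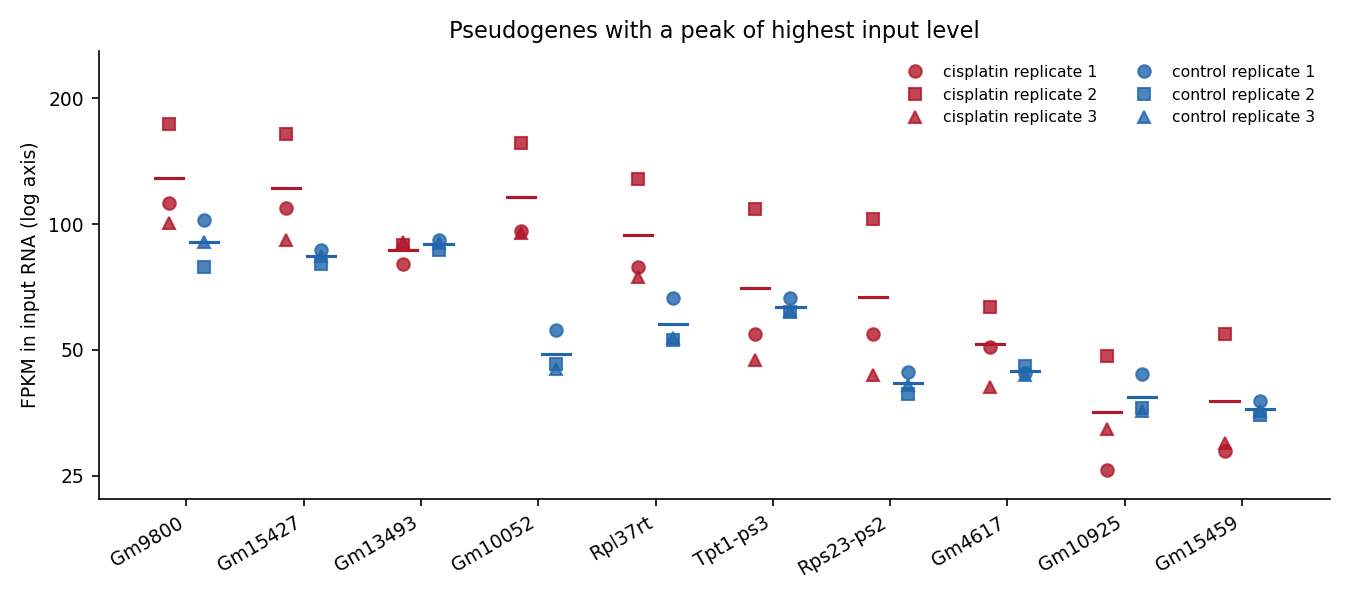
FPKM in input RNA (log axis) of the 10 pseudogenes with a peak of highest mean level, with a symbol per library (circle, replicate 1; square, replicate 2; triangle, replicate 3) and a line at each group mean, cisplatin left of control. The square of cisplatin replicate 2 is the highest cisplatin symbol in 9 of the 10; for Gm10052 all 3 cisplatin inputs, 95.3 to 156 FPKM, are above the controls, 44.99 to 55.7 FPKM.

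In the pseudogenes chosen for large called rises, all 3 cisplatin inputs exceeded the controls, which follows in part from that choice. Gm21399, Gm12852 and Rps6-ps4 met the filter only through their cisplatin inputs. Gm21399 had 5.93, 6.47 and 4.18 FPKM in cisplatin inputs, against 0.0742, 0.0732 and 0 FPKM in control inputs. Gm12852 had 3.32, 4.83 and 4.10 FPKM in cisplatin inputs and was listed at 0 in all control inputs. Gm12254 had 19.1, 12.1 and 18.1 FPKM in cisplatin inputs, against 2.44, 3.06 and 2.45 FPKM in control inputs, and was lowest of the cisplatin inputs in replicate 2. Its peak at chr11:58508850-58509114 was called, with a log2 difference of 1.65 in the authors' deposited table. Rps6-ps4, a copy of the gene for small subunit protein S6, had 5.32, 7.86 and 5.62 FPKM in cisplatin inputs, against 0.885, 0.466 and 0.924 FPKM in control inputs. Gm6136 had 11.6, 22.8 and 11.8 FPKM in cisplatin inputs, against 3.43, 2.99 and 4.20 FPKM in control inputs, and its peak lies within one assigned to Dis3l2.

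Large falls left little RNA after cisplatin. Gm6485 had 0, 1.12 and 0.31 FPKM in cisplatin inputs, against 4.94, 5.47 and 4.63 FPKM in control inputs, with a log2 change of -2.10 ± 0.25 (SE, n = 3 each; limma adjusted p = 0.000134). Gm17068 had 0.126, 0.0334 and 0.0463 FPKM in cisplatin inputs, against 3.57, 2.76 and 3.87 FPKM in control inputs. Itpa-ps1 had 0.276, 0.439 and 0.228 FPKM in cisplatin inputs, against 3.78, 3.81 and 3.17 FPKM in control inputs. Its parent Itpa, the gene of the enzyme that removes inosine triphosphate from nucleotide pools, moved the other way, with 26.04, 23.7 and 22.4 FPKM in cisplatin inputs, against 17.1, 19.8 and 19.2 FPKM in control inputs (log2 change 0.34, limma adjusted p = 0.0029). Gm15576 had 1.06, 0.506 and 0.622 FPKM in cisplatin inputs, against 4.56, 3.30 and 4.99 FPKM in control inputs. Gm12286 had 0.411, 1.24 and 0.317 FPKM in cisplatin inputs, against 2.87, 2.53 and 2.35 FPKM in control inputs. In each of these 5 pseudogenes the groups did not overlap, and without cisplatin replicate 2 the log2 changes were -1.39 to -2.39 and still passed. All 5 were chosen as large called falls, and each met the filter through its control inputs. Lack of overlap and a passed threshold therefore follow largely from that choice and give it no separate support.

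Pseudogenes were set against their own parents in 39 pairs with both members tested, from 35 parents. Pseudogene RNA was a median of 3.56% of the FPKM of its parent, and exceeded it in 2 pairs, Pisd-ps1 with Pisd, the gene of phosphatidylserine decarboxylase, and Gpr137b-ps with Gpr137b, a gene for a lysosomal membrane protein. The difference of log2(FPKM + 1) between pseudogene and parent was taken in each library and compared between treatments by an exact two-sided permutation test, whose smallest p with 3 against 3 is 0.1, so no pair can pass 0.05. The median of the cisplatin minus control difference was 0.18, or -0.017 without cisplatin replicate 2, and this replicate was the highest cisplatin input in 33 of 39 pairs. Groups did not overlap in 12 pairs, of which 8 were higher and 4 lower after cisplatin.

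Some pairs moved by more than their spread, upward or downward. Not every larger rise held without cisplatin replicate 2, as the pair of Rpl19-ps11 below shows. Rps6-ps4 minus Rps6 was -5.46 ± 0.33 in cisplatin inputs and -7.30 ± 0.18 in control inputs (SD, n = 3 each; exact permutation p = 0.1). Without cisplatin replicate 2 the shift of this pair was 1.66, against 1.85 with it. Rps6 has a second tested copy, Rps6-ps1, whose difference overlapped between groups, 0.67 with cisplatin replicate 2 and 0.12 without it. The pair of H2-K2 and H2-K1, the gene of a major histocompatibility class I heavy chain, had -1.67 ± 0.10 in cisplatin inputs and -2.38 ± 0.18 in control inputs (SD, n = 3 each; exact permutation p = 0.1), and its difference of 0.71 was unmoved by leaving out cisplatin replicate 2. H2-K2 itself had 3.84, 3.65 and 2.85 FPKM in cisplatin inputs, against 1.94, 1.499 and 1.19 FPKM in control inputs.

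At the low end, Itpa-ps1 minus Itpa was -4.25 ± 0.15 in cisplatin inputs and -2.10 ± 0.18 in control inputs (SD, n = 3 each; exact permutation p = 0.1). Vcp-rs with Vcp, the gene of an AAA ATPase that extracts ubiquitylated proteins, differed by -0.96 between treatments. Copies of 1 parent could part: among 3 copies of Rpsa, which encodes a protein of the small subunit, Rpsa-ps10 differed by 1.03, Rpsa-ps9 by -1.19, and Rpsa-ps2 by 0.074 with groups that overlapped. Without cisplatin replicate 2 the differences were 0.79 for Rpsa-ps10, -1.28 for Rpsa-ps9 and -0.23 for Rpsa-ps2, the last with its sign turned. Rpsa-ps9 had 0.884, 1.37 and 0.615 FPKM in cisplatin inputs, against 2.70, 2.42 and 2.87 FPKM in control inputs. Rpsa-ps10 had 6.42, 10.3 and 4.20 FPKM in cisplatin inputs, against 2.75, 1.83 and 1.78 FPKM in control inputs. The widest spread was in Rpl19-ps11, a copy of the gene for large subunit protein L19, with 23.5, 101 and 13.9 FPKM in cisplatin inputs, against 12.8, 12.1 and 13.0 FPKM in control inputs. Its pair differed by 0.78 with cisplatin replicate 2 and by -0.017 without it.

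**Figure D5:**
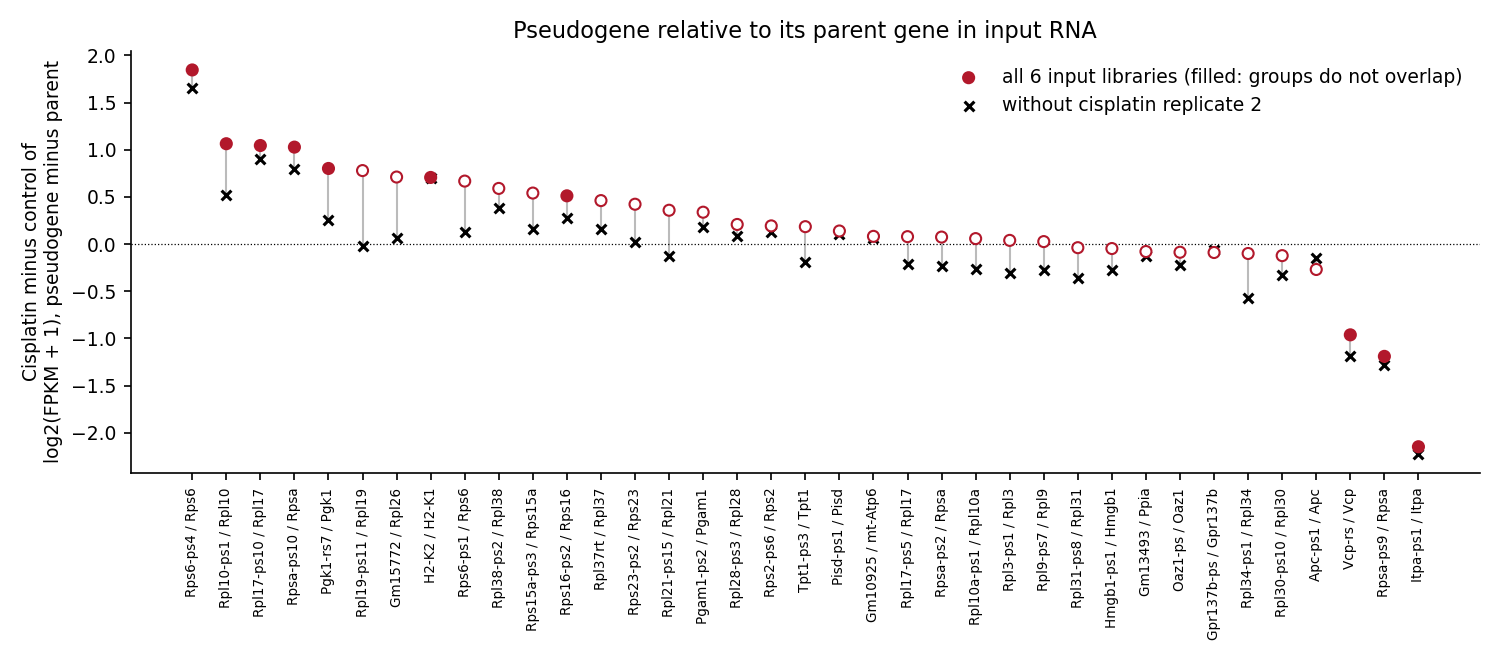
Cisplatin minus control of the difference in log2(FPKM + 1) between a pseudogene and its parent (vertical axis) for 37 of the 39 pairs (horizontal axis), with all 6 input libraries (circles, filled where the groups do not overlap) and without cisplatin replicate 2 (crosses). Of the 10 filled circles 7 are above and 3 below 0, the groups of the 2 pairs not drawn did not overlap either, 1 above and 1 below 0, and the median of all 39 pairs was -0.017 without replicate 2 and 0.18 with it.

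Peaks and input RNA were also set side by side for the members with both. Among the called peaks of tested pseudogenes, 35 negative ones lay 14 in genes higher after cisplatin, 3 in genes lower and 18 in genes not called in input. The 16 positive ones lay 3 in higher, 4 in lower and 9 in not called genes. Of all 146 tested pseudogenes 54 were higher and 20 lower, against backgrounds of 40.1% higher and 41.1% lower over all tested genes. These input calls are from the fit with all libraries, cisplatin replicate 2 included. Gm13230 had a positive peak and less input RNA, with 11.2, 10.8 and 10.7 FPKM in cisplatin inputs, against 12.9, 14.0 and 13.7 FPKM in control inputs. Rpl17-ps10 had a negative peak and more input RNA, with 6.82, 8.26 and 5.72 FPKM in cisplatin inputs, against 3.03, 2.99 and 2.33 FPKM in control inputs. Over 181 peaks in 146 tested pseudogenes the Spearman correlation of log2 difference and input change was -0.15, and over the 51 called peaks -0.30. For 17218 peaks of other tested genes it was 0.019, and for the 8393 called ones among them -0.055. These are correlations across peaks that share libraries, and the peak difference is itself computed with input reads, so they are given as a description.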

How the data were processed

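Fragmented, rRNA-depleted RNA was split into input and anti-ac4C IP fractions and made into strand-specific paired-end libraries, per the labels' protocols. Tools credited in the submitters' processing notes are HISAT2, HOMER, fastp and FastQC, with build mm10; the peak caller, gene annotation and counting rule were not given in the sources used here. Per the file headers, the authors' peak table holds a fold enrichment (a ratio of IP over input), log10 p scores and a log2 difference between treatments with its log10 adjusted p score. The expression table holds FPKM deposited by the authors for 6 input libraries; its deposited log2 fold changes and p-values were not used for calls.

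Members and lists were chosen with earlier results of these data known. Peak coordinates were converted to counting from 1. Parents were taken from the symbol before "-ps"; parents from RefSeq synonyms or "-rs" symbols were added after the data were seen. Input RNA was tested with limma 3.58.1 (R 4.3.3) for genes that reached 1 FPKM in at least 3 of 6 inputs, on log2(FPKM + 1), with a mean trend, Benjamini-Hochberg adjustment over all 11449 genes and a threshold of 0.05; the method was tested on simulated data. All adjusted p-values of input RNA are from this limma fit or, where said, from its repeat without cisplatin replicate 2. FPKM were whole multiples of what 1 fragment is worth for 14852 of 14852 genes (tolerance 0.0001), which gave fragments per library. No library was a repeat of another, since the chi-square per gene of their fragments was 7.72 to 15.9 within cisplatin and 2.36 to 3.13 within control inputs. Named members were those with the highest fold enrichment, the largest called log2 differences, the highest FPKM, the largest called input changes or 3 or more peaks, and pairs with peaks in both. Some members that these choices name are not reported here. Pairs chosen by their difference were named after their values were seen. Alternatives were other pseudocounts, filters, scalings, thresholds and peak subsets, a replicate block, leaving out each library and voom on the recovered fragments. Other steps used scipy 1.17.1, pandas 2.3.3, numpy 2.4.6 and, for plots, matplotlib 3.10.9, under Python 3.11.15.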

Additional observations from a re-analysis of the deposited data

How the results depend on the processing

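Of 146 tested pseudogenes 74 were called (54 higher, 20 lower) with limma, against 81.3% of all tested genes. Without cisplatin replicate 2 that background was 80.0%, with 36.3% higher and 43.7% lower. For the other settings the share over all tested genes is not given, so their counts describe the members only. A filter at 5 FPKM, which left 70 pseudogenes, gave 34 called, 28 higher and 6 lower. Leaving out 1 library at a time gave 58 to 83 called, 42 to 67 higher and 10 to 34 lower. The number lower was 34 without cisplatin replicate 2, and 12, 10 and 12 without control replicates 1, 2 and 3. Voom on the recovered fragments, chosen after seeing the data, gave 71. The replicate numbers did not pair the samples (same-number correlations of 0.0975, -0.116 and 0.0428), and a replicate block gave 79 called pseudogenes and 38 parents. Of the parents by symbol 37 were called, and 34 to 42 when 1 library was left out. Quantile normalization gave 17 lower parents, against 7, and turned 6 parents negative, Ppia at -0.19, Rpl17 at -0.20, Rpl3 at -0.022, Rpl37 at -0.078, Rps23 at -0.091 and Rps6 at -0.0082. The cause was not tested. Tpt1-ps3, at 0.049 with all libraries, ranged over -0.31 (without cisplatin replicate 2) to 0.28 (without cisplatin replicate 3). Pairs without overlap numbered 12, and 13 to 23 when 1 library was left out, 23 of them without cisplatin replicate 2; fewer samples alone make overlap rarer. Called pseudogene peaks numbered 63. With "-ps" symbols only, 10 were called, 5 of each sign. Processed pseudogenes alone gave 12 positive and 31 negative, and an authors' adjusted p of 0.01 gave 16 positive and 26 negative. The median fold enrichment of 3.97 ranged from 2.91, for peaks with an enrichment p at or under the list's median, to 6.46, for peaks with an absolute log2 difference of at least 1, and was 4.70 for folds of at least 2, which the choice of peaks itself raises. Depth limits the low pseudogenes, whose values rest on few fragments.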
